A study of Mus musculus with 8 samples.

Results

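The genes described here are 10 members of the lipoxygenase and prostaglandin pathway, the enzymes and receptors with which cells make and sense oxygenated products of arachidonic acid. They were taken by symbol, as Alox15, Alox5, Alox5ap, Alox12, Lta4h, Ltb4r1, Ptgs1, Ptgs2, Ptger2 and Ptger4, and all 10 were found among the 56980 genes of the count table. The study compared regulatory T cells (Tregs) of mice in high-altitude de-acclimatization (HADA), the period after a return from high altitude, with those of control mice. The mice were male C57BL/6j animals aged 8 weeks at purchase, and HADA mice were housed for 28 days under hypobaric hypoxia that simulated 6000 m of altitude before they returned to normoxia. Control mice of the study stayed in normoxia throughout. Tregs of peripheral blood were isolated by flow cytometry, cDNA was made with a kit for low input, and 4 libraries per group were sequenced. The study defines Tregs as CD4+CD25+ cells in its co-culture assay and does not restate the markers for these libraries. The day after the return on which these cells were sorted is not given in the sources used here. The labels do not say whether the libraries of a group came from separate animals, so that p-values measure the spread between these libraries, which may be technical.

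The arachidonic acid cascade starts when phospholipases free the fatty acid from membranes. Lipoxygenases turn it into leukotrienes and hydroxylated fatty acids, while cyclooxygenases turn it into prostaglandins and thromboxane. The membrane protein encoded by Alox5ap helps the lipoxygenase made from Alox5. Myeloid cells, mast cells and platelets are well-known producers of these mediators, and T cells carry receptors for some of them, among them receptors for prostaglandin E2 that raise cyclic AMP.

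The total count was 28240337, 22929193, 25230994 and 26590026 in HADA replicates 1 to 4, and 1477431, 14452433, 22584062 and 21587245 in control replicates 1 to 4. Control replicate 1 was thus the shallowest library, and 3 counts, the smallest amount taken as visible, were 0.000203% of its total against 1.06e-05% in HADA replicate 1. HADA had the higher mean total (two-sided exact permutation p = 0.0286, the lowest value that groups of 4 can give). Reads had been counted over the whole span of each gene, introns included, and stretches shared with another gene were not counted, and all 1077 protein-coding genes lying wholly under other genes stood at 0 in every library. As a measure of the counts that fall on genes not known to be active in blood, counts were taken over 1558 genes of olfactory or vomeronasal receptors with no overlapping gene. Their density was 5.29, 4.39, 2.86 and 1.99 counts per kb of span in HADA replicates 1 to 4, and 0.0789, 10.8, 8.24 and 3.49 in control replicates 1 to 4. The background of a member is this density times its span, in the same library. The whole span enters, shared stretches included, and the subtraction used the same background. Ratios are therefore too low for Ptger4, Alox5ap and Ptgs1, of whose spans 31.1%, 22.3% and 9.26% lie under other genes. The 5% of receptor genes of highest density, left out in a trimmed background chosen after seeing the data, held 61.4%, 54.6%, 62% and 51.2% of the density in HADA replicates 1 to 4, against 5.96%, 1.48%, 0.892% and 7.89% in control replicates 1 to 4. Against the trimmed background, ratios in HADA are thus 2.05 to 2.63 times those given here, and ratios in control 1.01 to 1.09 times.

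Of the 10 members, 9 passed edgeR's filter on low counts, and Ptger2, which had no counts, did not. The thresholds were a log2 fold change beyond 1 together with a p below 0.05 after Benjamini-Hochberg adjustment, and by edgeR's quasi-likelihood test 0 of the 9 were past the thresholds, against 1.65% of the 21991 tested genes higher in HADA and 0.477% lower. The log2 fold change was positive for 8 of the 9 and negative for Ptgs2, with a median of 1.85 beside 0.01 over all tested genes. Alox15, Ltb4r1 and Ptger4, 3 of 9, had an unadjusted p below 0.05, as had 12% of all tested genes as higher and 14.7% as lower. These 3 were the members that DESeq2 placed past the same thresholds, all higher in HADA, where it placed 11.6% of genes higher and 20.1% lower. Without control replicate 1, edgeR placed Alox15, Ltb4r1, Ptgs1 and Ptger4 past them as higher, 4 of 9, at a background of 15.5% of genes higher and 19.7% lower. Every HADA library exceeded every control library for Alox5ap and Ptger4, 2 of the 9, where 9.13% of tested genes did so. In whole-population libraries like these, fewer cells of a type and less RNA per cell cannot be told apart.

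**Figure D1:**
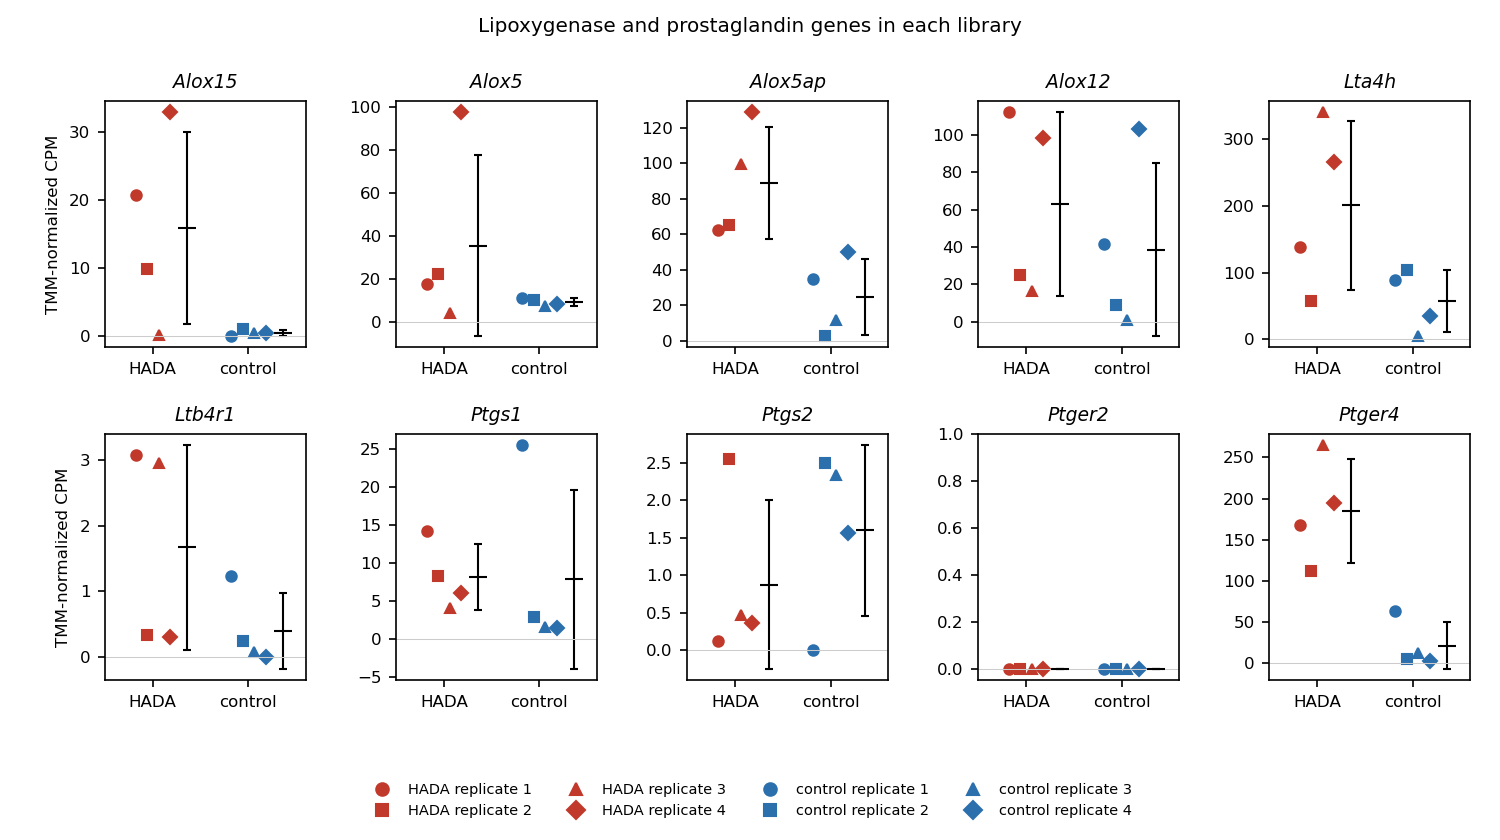
TMM-normalized CPM (on linear axes that differ between panels) of the 10 members in the 4 HADA (red) and 4 control (blue) libraries. The replicate is shown by the symbol and the mean ± SD (n = 4) by the black bar at the right of each group. Counts were scaled by library size times a TMM factor, which ran from 0.628 in HADA replicate 4 to 2.24 in control replicate 2. Ptger4 and Alox5ap show HADA above control in every library, Alox15 lies near 0 in HADA replicate 3 and all controls, and Ptger2 lies at 0 throughout.

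Among the lipoxygenases, Alox15 (ENSMUSG00000018924) had the highest fold change of the tested members. It encodes a lipoxygenase that takes part in the synthesis of lipoxins and resolvins, lies on the minus strand of chromosome 11 of GRCm39 from 70234978 to 70242857, and shares no stretch with another gene. Its counts were 526, 235, 4 and 547 in HADA replicates 1 to 4, and 0, 32, 15 and 7 in control replicates 1 to 4. Of the HADA libraries 3 lay far above every control, while HADA replicate 3 lay among the controls, so that the groups overlapped. Set against the background, the counts were 12.6, 6.80, 0.177 and 34.9 times it in HADA, and 0, 0.377, 0.231 and 0.254 times it in control. In other words, control replicates 2, 3 and 4 and HADA replicate 3 held fewer Alox15 counts than receptor genes of that span, while in control replicate 1 the background was 0.621 counts, too few to tell. The level was 15.9 ± 14.1 CPM in HADA and 0.483 ± 0.412 CPM in control (SD, n = 4). Its log2 fold change of HADA against control was 4.82 ± 1.28 (SE, Benjamini-Hochberg adjusted p = 0.069 in edgeR's quasi-likelihood fit), and 3 of 4 HADA libraries exceeded the control mean. Single libraries decided the call, since without HADA replicate 3 Alox15 was past the thresholds at 5.40 (Benjamini-Hochberg adjusted p = 0.0366 in edgeR's quasi-likelihood fit; 0.865% of genes were higher in that fit), and without control replicate 1 at 4.76 (adjusted p = 0.0338), within a range of adjusted p from 0.000394 to 0.206 over the 13 alternatives that gave a value.

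Alox5 encodes the lipoxygenase that starts leukotriene synthesis, and its span of 51102 bases is the longest among the members. It had 447, 536, 71 and 1621 counts in HADA replicates 1 to 4, and 18, 318, 209 and 143 counts in control replicates 1 to 4. HADA replicate 4 was highest and stood apart from the other HADA libraries, and HADA replicate 3 was the lowest of all 8 once scaled, at 4.19 CPM beside 7.30 to 11.2 CPM in the controls. Control replicates 2, 3 and 4 held 0.578, 0.496 and 0.802 times the background and HADA replicate 3 held 0.485 times it (1.28 times the trimmed background), while control replicate 1 held 4.47 times it. The means were 35.4 ± 42.1 CPM in HADA and 9.18 ± 1.73 CPM in control (SD, n = 4). The log2 fold change of Alox5 was 1.95 ± 0.97 (SE) and did not pass the test (Benjamini-Hochberg adjusted p = 0.208 in edgeR's quasi-likelihood fit). It was 0.81 without HADA replicate 4 and 0.40 with libraries drawn down to the smallest total, and subtraction of the receptor background left 0 counts in HADA replicate 3 and control replicates 2, 3 and 4.

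Alox5ap encodes the protein that presents arachidonic acid to the enzyme made from Alox5. Its level was 62.3, 65.6, 99.5 and 129 CPM in HADA replicates 1 to 4, and 34.8, 2.63, 11.5 and 50.1 CPM in control replicates 1 to 4. Every HADA library was above every control library, and the nearest pair was HADA replicate 1 and control replicate 4. Against the background its counts were between 12.8 and 46.2 times in HADA, while the controls ran from 0.334 times in replicate 2 to 30.4 times in replicate 1. The spread between controls was wide beside the difference, and the log2 fold change of 1.85 ± 0.93 (SE) did not pass (Benjamini-Hochberg adjusted p = 0.212 in edgeR's quasi-likelihood fit) and was 0.66 with libraries drawn down to the smallest total. Part of the Alox5ap span, 22.3%, lies under Gm55542 and Gm19719 on the other strand, where counts went to neither gene.

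Alox12, which encodes the lipoxygenase known from platelets, overlapped between the groups. Its level was 112, 24.8, 16.6 and 98.4 CPM in HADA replicates 1 to 4, and 41.6, 8.92, 1.05 and 103 CPM in control replicates 1 to 4. Each group held both high and low libraries, with HADA replicates 1 and 4 and control replicate 4 close together at the top. The log2 fold change was 0.71 ± 1.17 (SE, Benjamini-Hochberg adjusted p = 0.693 in edgeR's quasi-likelihood fit), and it turned to -0.35 when all libraries were drawn down to 1477431 counts. With a library left out it ran from 0.18 without HADA replicate 1 to 1.95 without control replicate 4.

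**Figure D2:**
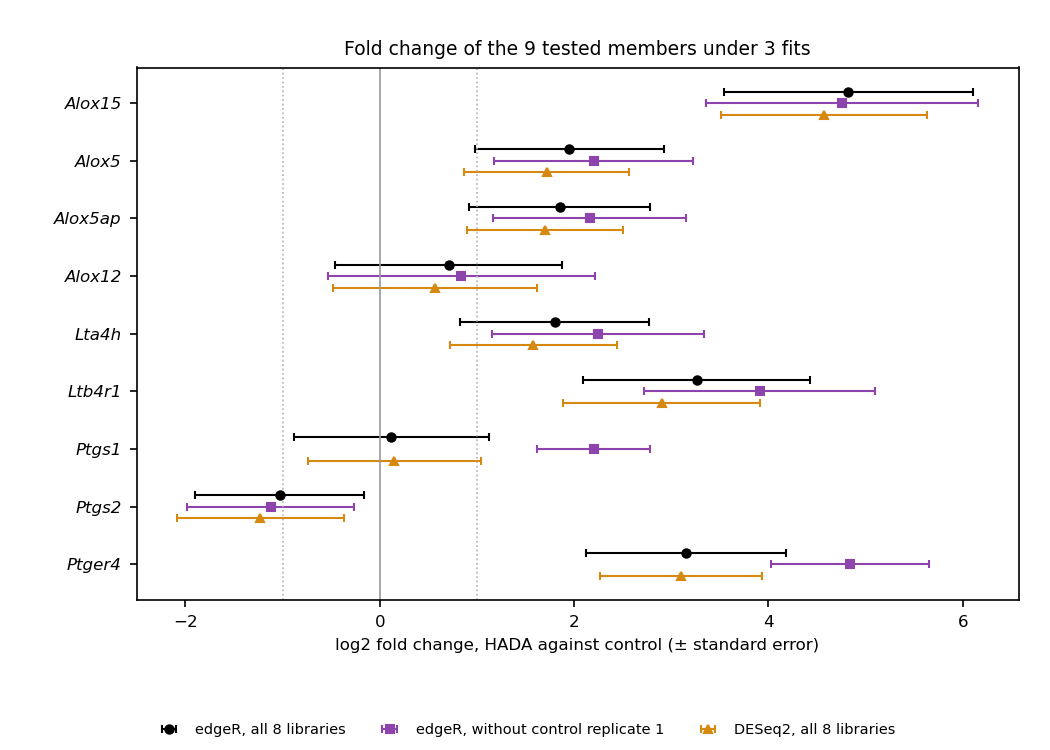
Log2 fold change of HADA against control (horizontal axis) for the 9 tested members, with bars of 1 standard error, in edgeR with all 8 libraries (black circles), edgeR without control replicate 1 (purple squares) and DESeq2 with all 8 libraries (orange triangles). Dotted lines mark the fold threshold of 1 on the log2 scale in either direction. Ptgs1 moved most between the fits, from 0.12 to 2.20 without control replicate 1.

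Downstream of Alox5, Lta4h encodes the hydrolase that forms leukotriene B4 and Ltb4r1 its high-affinity receptor. Lta4h was at 139, 56.6, 341 and 266 CPM in HADA replicates 1 to 4, and at 88.2, 104, 4.44 and 34.3 CPM in control replicates 1 to 4. In TMM-normalized CPM, HADA replicates 1, 3 and 4 were above every control, and HADA replicate 2 lay between the controls. This order rests on the scaling. Control replicate 2 had 3321 Lta4h counts on a total of 14452433, with the highest TMM factor, 2.24. HADA replicate 1 had 3523 counts on a total of 28240337, with a TMM factor of 0.901. Lta4h counts were at or above 5.39 times the background in 7 libraries, the exception being control replicate 3 at 0.49 times. For Lta4h the log2 fold change was 1.80 ± 0.97 (SE, Benjamini-Hochberg adjusted p = 0.236 in edgeR's quasi-likelihood fit). It was -0.01 once the receptor background had been subtracted from each library and 0.52 with libraries drawn down. Both of these fits filtered and scaled all genes anew. The Lta4h background itself was 90.1 beside 5768 counts in HADA replicate 3 and 339 beside 3321 in control replicate 2. The source of the change was not tested.

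Ltb4r1 had few counts, 78, 8, 50 and 5 in HADA replicates 1 to 4 and 2, 8, 2 and 0 in control replicates 1 to 4. HADA replicates 1 and 3 were high, at 3.08 and 2.95 CPM, and HADA replicates 2 and 4, at 0.335 and 0.301 CPM, lay below control replicate 1 at 1.24 CPM. That control value rests on 2 counts in the shallowest library. HADA replicates 2 and 4 and control replicates 2, 3 and 4 held no more than 0.991 times the background, but against the trimmed background HADA replicates 2 and 4 held 1.59 and 2.03 times it. HADA against control gave Ltb4r1 a log2 fold change of 3.26 ± 1.17 (SE, Benjamini-Hochberg adjusted p = 0.127 in edgeR's quasi-likelihood fit), and 2 of 4 HADA libraries exceeded the control mean. Without control replicate 1 it was 3.91 and past the thresholds (Benjamini-Hochberg adjusted p = 0.0377 in edgeR's quasi-likelihood fit). Over 12 alternatives the Benjamini-Hochberg adjusted p ran from 0.0198 (DESeq2) to 0.329 (edgeR's quasi-likelihood fit). The log2 fold change of Ltb4r1 was 2.63 without HADA replicate 1 and 2.55 with the replicate block, past the thresholds in neither.

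The cyclooxygenase genes had the lowest CPM per kb of span in HADA among the tested members. Ptgs1, the constitutive form, was at 14.2, 8.33, 4.08 and 6.01 CPM in HADA replicates 1 to 4, and at 25.5, 2.91, 1.54 and 1.45 CPM in control replicates 1 to 4. Control replicate 1 was the highest of all 8 libraries, on 41 counts, and the other controls were below every HADA library. With all libraries the log2 fold change of Ptgs1 was 0.12 ± 1.0 (SE, Benjamini-Hochberg adjusted p = 0.942 in edgeR's quasi-likelihood fit). Without control replicate 1 it was 2.20 ± 0.58 (SE) and past the thresholds (Benjamini-Hochberg adjusted p = 0.0258 in edgeR's quasi-likelihood fit), in a range from 0.0258 to 0.993 over 15 alternatives, and its sign was negative in 5 of the 15. The counts were 1.10 to 3.11 times the background in HADA, 23.8 times in control replicate 1, and 0.244 to 0.396 times in the other controls.

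Ptgs2, the inducible form and the usual source of prostaglandins in inflammation, had 3, 61, 8 and 6 counts in HADA replicates 1 to 4, and 0, 80, 67 and 27 counts in control replicates 1 to 4. HADA replicate 2 and control replicates 2, 3 and 4 were high, HADA replicates 1, 3 and 4 were low, and control replicate 1 was too shallow to be placed. In control replicates 2, 3 and 4 the counts were 0.907, 0.992 and 0.944 times the background, that is, about what receptor genes of that span collected in those libraries, and HADA replicate 2 was at 1.70 times. Against the trimmed background, control replicate 4 held 1.02 times it and control replicate 3 was level with it. Ptgs2 was the only tested member with a negative log2 fold change, -1.03 ± 0.87 (SE), and it did not pass (Benjamini-Hochberg adjusted p = 0.429 in edgeR's quasi-likelihood fit). The value was -2.39 without HADA replicate 2, -0.68 without HADA replicate 3 and -0.62 without HADA replicate 4. Its span, on the plus strand of chromosome 1 of GRCm39 from 149975782 to 149983978, lies under no other gene.

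**Figure D3:**
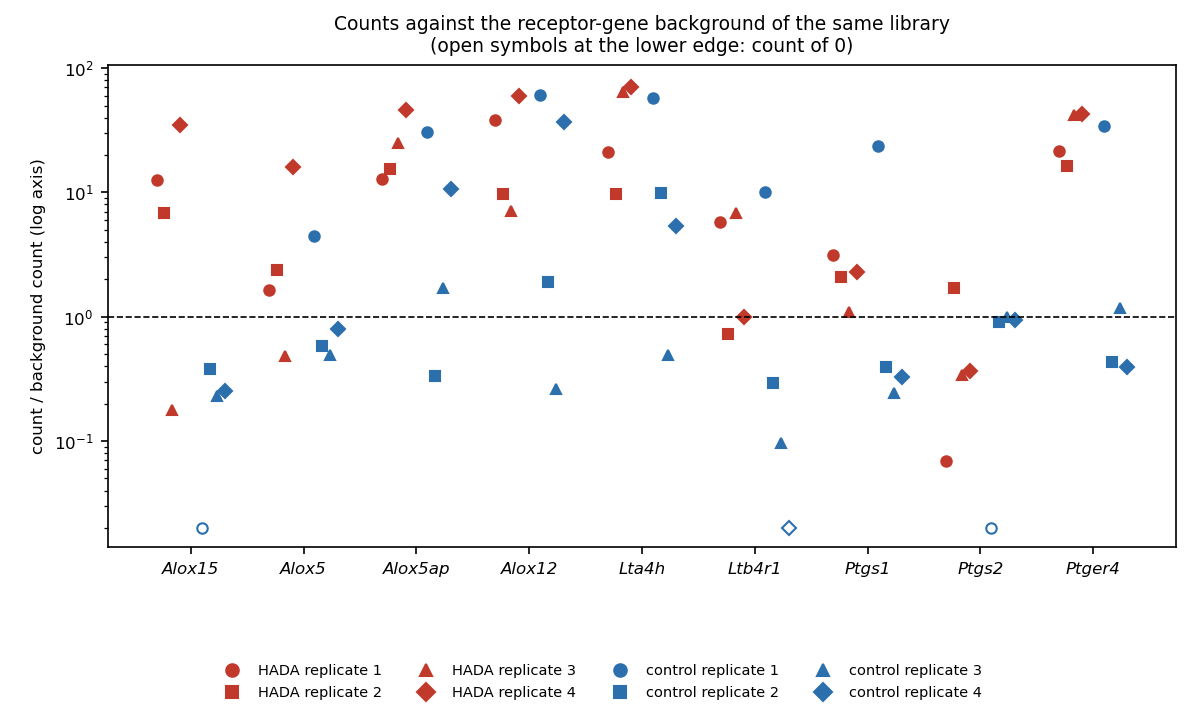
Count of each tested member divided by its receptor-gene background in the same library (log axis), for the 4 HADA (red) and 4 control (blue) libraries, with the replicate shown by the symbol. The dashed line at 1 marks a count equal to the background, and open symbols at the lower edge mark a count of 0. Control replicates 2, 3 and 4 of Alox15 and of Ptgs2 lie below the line, while all libraries of Ptger4 other than control replicates 2 and 4 lie above it.

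Of the 2 receptors for prostaglandin E2 that raise cyclic AMP and are known to restrain T cell activation, Ptger4 was measured over part of its span and Ptger2 was not measured. Ptger2 (ENSMUSG00000037759), on the plus strand of chromosome 14 of GRCm39 from 45225652 to 45241277, stood at 0 in all 8 libraries, and 100% of its span lies under Gm49364 and Gm17173. Ptger4 (ENSMUSG00000039942), on the minus strand of chromosome 15 from 5236142 to 5273668, was at 168, 112, 265 and 194 CPM in HADA replicates 1 to 4, and at 63.4, 5.51, 12.8 and 3.01 CPM in control replicates 1 to 4. Every HADA library was above every control library, and control replicate 1 stood nearest to HADA. Ptger4 counts were 16.3 to 43.1 times the background in HADA and 34.5 times in control replicate 1, but 0.436, 1.18 and 0.397 times in control replicates 2, 3 and 4. The means were 185 ± 63.3 CPM in HADA and 21.2 ± 28.4 CPM in control (SD, n = 4). The log2 fold change was 3.15 ± 1.03 (SE, Benjamini-Hochberg adjusted p = 0.108 in edgeR's quasi-likelihood fit), and 4 of 4 HADA libraries exceeded the control mean. Without control replicate 1 it was 4.84 ± 0.81 (SE) and past the thresholds (Benjamini-Hochberg adjusted p = 0.00831 in edgeR's quasi-likelihood fit), in a range from 0.00243 to 0.836 over 16 alternatives. The log2 fold change of Ptger4 was 2.22 with libraries drawn down and 4.12 with the replicate block, past the thresholds in neither. Of the Ptger4 span, 31.1% lies under Ttc33 and Gm15937, as does 50% of its exons, so that the counts come from the remainder. The background covers the whole span, so that the ratios of Ptger4 to it are too low.

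Promoters from RefSeq, on build GRCm38.p6, cover 250 bases before and 50 after the start of transcription and were matched for 8 of the 10 members; Alox15 and Alox5ap had no entry. Those of Ptger4 and Ptgs2 are shown because these prostaglandin genes differed most in direction, Ptger4 with every HADA library above control and Ptgs2 with the only negative fold change. Capitals mark GGGCGG (the GC box) in both, CCAAT (the CCAAT box) in Ptger4 and ACGTG (the core of the hypoxia response element) in Ptgs2, each searched on both strands.
Ptger4, chr15:5244138-5244437, minus strand: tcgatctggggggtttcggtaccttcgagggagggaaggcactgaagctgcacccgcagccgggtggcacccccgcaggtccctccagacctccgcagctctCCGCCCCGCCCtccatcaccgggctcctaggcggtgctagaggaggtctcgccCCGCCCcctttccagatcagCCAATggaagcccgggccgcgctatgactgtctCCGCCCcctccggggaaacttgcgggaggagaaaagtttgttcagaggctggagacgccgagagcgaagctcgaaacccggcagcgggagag
Ptgs2, chr1:150099781-150100080, plus strand: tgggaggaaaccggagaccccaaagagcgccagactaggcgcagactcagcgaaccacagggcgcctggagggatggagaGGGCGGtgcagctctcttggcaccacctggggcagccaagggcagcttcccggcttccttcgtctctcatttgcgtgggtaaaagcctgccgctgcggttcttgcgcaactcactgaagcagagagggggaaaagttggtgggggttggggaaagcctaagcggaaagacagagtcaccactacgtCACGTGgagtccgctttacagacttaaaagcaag
The Ptger4 promoter holds 4 GC boxes, of which a pair shares a letter, and 1 CCAAT box, and 67% of its bases are G or C, beside a median of 52.7% over the promoters of 27025 genes. In Ptgs2 there is 1 GC box, and ACGTG lies on both strands of a single palindrome after the start, counted as 2 matches. GGGCGG was found in 5 of the 8 members and 35.9% of all promoters, CCAAT in 3 of 8 and 37.9%, and ACGTG in 1 of 8 and 19.7%. TGACNNNGC, the core of the antioxidant response element, was found in 1 of 8, Ltb4r1, and in 12.5% of all promoters, and the cyclic AMP response element TGACGTCA in 0 of 8 and 1.88%. A match is a description of the letters in this window only.

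Compared per length, as mean CPM per kb of gene span in HADA, Lta4h was highest at 6.38, followed by Ptger4 at 4.92, Alox12 at 4.53, Alox5ap at 3.81 and Alox15 at 2.02. Alox5 at 0.693, Ltb4r1 at 0.658, Ptgs1 at 0.373 and Ptgs2 at 0.107 mean CPM per kb formed the lower end. On the same scale in control the order was different, with Alox12 first at 2.78 and Lta4h next at 1.84, while Ptger4 was at 0.564 and Alox15 was lowest of the tested members at 0.0613. Given the SDs of the HADA libraries, neighbours within the upper end such as Lta4h, Ptger4 and Alox12 do not differ beyond their spread. A span includes introns and shared stretches, so that these levels are not those of mature transcripts.

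The members did not vary as a block across libraries. HADA replicate 4 held the highest CPM of Alox15, Alox5 and Alox5ap, HADA replicate 3 that of Lta4h and Ptger4, and HADA replicate 1 that of Alox12 and Ltb4r1. HADA replicate 3 was the lowest HADA library for Alox15, Alox5, Alox12 and Ptgs1, and HADA replicate 2 was the lowest for Lta4h and Ptger4. For each tested member, the 3 tested genes with the highest Pearson correlation of log2 CPM over the 8 libraries were listed as a description, since libraries share depth and background. Ptger4 was most like Eloc (r = 0.994), Lrif1 (r = 0.992) and Foxo4 (r = 0.991), and Alox5ap was most like Zfp62 (r = 0.991), Dram2 (r = 0.989) and the T cell receptor component Cd3g (r = 0.988). Alox15 was most like Tceal8 (r = 0.987), Acbd4 and Wnt9a (both r = 0.981). Alox5 went with Tprkb, Ankrd52 and Kcnj2 (r = 0.973 to 0.976), Alox12 with Mtmr9, Frs2 and H2-M3 (r = 0.962 to 0.965), and Lta4h with Etfbkmt, Gps2 and Galnt1 (r = 0.959 to 0.972). For Ltb4r1 these genes were Ttc17, Gm11579 and Cfap68 (r = 0.971 to 0.981), for Ptgs1 Xpot, Ncbp2 and Pfkfb4 (r = 0.977 to 0.984), and for Ptgs2 Gm16759, Gm21409 and E430024I08Rik (r = 0.971 to 0.987).

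A wider list held 48 other genes of eicosanoid metabolism in 9 roles, from phospholipases to receptors of resolving mediators. Of its genes 41 were tested, with 27 positive and 14 negative log2 fold changes, a median of 0.47, and 0 past the thresholds in either direction by edgeR. At an unadjusted p below 0.05 there were 6 higher and 3 lower of 41, beside 12% and 14.7% of all genes. DESeq2 placed 5 higher and 5 lower among 39 past the thresholds, and edgeR without control replicate 1 placed 5 higher and 4 lower among 41, beside 11.6% and 20.1% of all genes with DESeq2 and 15.5% and 19.7% without control replicate 1. The groups did not overlap, with HADA above, for 3 of the 41, Pla2g5, Tbxas1 and Cmklr1, beside 9.13% of all tested genes. Pla2g4b, Ptger1 and Gpr18 were at 0 in all libraries, and each has 100% of its span under other genes. By role, the median log2 fold change was -0.07 over 8 tested phospholipases, 0.29 over 4 other lipoxygenases, 0.70 over 2 genes of leukotriene synthesis and -0.21 over 4 leukotriene receptors. It was 1.41 over 7 prostanoid synthases, 0.44 over 5 prostanoid receptors, 1.13 over 7 genes of breakdown and transport, 1.01 over 2 epoxide hydrolases and 0.90 over 2 receptors of resolving mediators.

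In each role the gene with the highest mean CPM was examined more closely, and all but Cmklr1 overlapped between the groups. Ptges3, a prostaglandin E synthase that is also a chaperone partner of heat shock protein 90, had 22252, 20210, 18498 and 20778 counts in HADA replicates 1 to 4, and 1565, 78117, 180600 and 161326 counts in control replicates 1 to 4. It was high in control replicates 2, 3 and 4, while control replicate 1, at 973 CPM, lay among the HADA libraries at 846 to 1249 CPM. Its log2 fold change was -2.23 ± 0.74 (SE, Benjamini-Hochberg adjusted p = 0.111 in edgeR's quasi-likelihood fit). Without control replicate 1 it was -2.45 (Benjamini-Hochberg adjusted p = 0.0185 in edgeR's quasi-likelihood fit), past the thresholds as lower in HADA. Ptges3 was past them as lower also with DESeq2 (-2.48), with libraries drawn down (-3.72) and with the background subtracted (-3.33) or its trimmed form (-3.21), so that with the fit without control replicate 1 this held in 5 of 16 alternatives. It was not past them in the others, among them the replicate block (-1.80) and the other 7 fits with a library left out, and adjusted p ran from 0.00287 to 0.269 over all 16. The other leading genes were Plaat3 (log2 fold change 0.64), Alox8 (1.08), Mgst2 (0.24), Cysltr2 (1.10), Tbxa2r (0.44), Abcc4 (0.47), Ephx1 (1.02) and Cmklr1 (1.42), with adjusted p from 0.192 to 0.876 in edgeR's quasi-likelihood fit with Benjamini-Hochberg adjustment. With libraries drawn down, Plaat3 (-0.76), Mgst2 (-1.24), Cysltr2 (-0.27), Tbxa2r (-1.20) and Abcc4 (-1.41) turned negative, and Ephx1 was at 0.11. The sign turned also for Mgst2 (-0.58), Tbxa2r (-0.83) and Abcc4 (to just below 0) with the background subtracted and for Cysltr2 (-0.22) with the replicate block. With a library left out, the ranges were 0.24 to 3.06 for Plaat3, -0.15 to 1.51 for Alox8, -0.16 to 0.94 for Mgst2, 0.00 to 1.76 for Cysltr2 and -1.19 to 1.74 for Tbxa2r, and 0.33 to 1.11 for Abcc4, 0.55 to 1.71 for Ephx1 and 1.12 to 1.97 for Cmklr1.

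Of the genes singled out after their values were seen, Tbxas1, the thromboxane synthase, had the lowest adjusted p of the wider list. It had 4905, 2984, 1330 and 1183 counts in HADA replicates 1 to 4, and 5, 739, 420 and 340 counts in control replicates 1 to 4. Every HADA library was above every control library in CPM, and control replicate 1 was the lowest of all. The log2 fold change of Tbxas1 was 2.94 ± 0.86 (SE, Benjamini-Hochberg adjusted p = 0.0871 in edgeR's quasi-likelihood fit), and 34.3% of its span lies under other genes. Ptges2, another prostaglandin E synthase, had 685, 53, 891 and 17 counts in HADA and 5, 29, 4 and 5 in control, in replicate order, with HADA replicates 1 and 3 high and a log2 fold change of 4.51 ± 1.46 (SE). Of the genes that break prostaglandins down, Ptgr2 was at 23, 991, 1733 and 1893 counts in HADA and 3, 129, 152 and 139 in control, with HADA replicate 1 below every control in CPM and a log2 fold change of 3.72 ± 1.21 (SE), and Hpgd was at 732, 4649, 59 and 874 in HADA and 35, 217, 153 and 183 in control, with HADA replicate 2 high, HADA replicate 3 lowest of all 8 in CPM and a log2 fold change of 2.67 ± 1.12 (SE), which was 1.45 without HADA replicate 2 and 1.62 with the replicate block. None of these 3 passed in the fit of all libraries (adjusted p = 0.107, 0.107 and 0.163 in edgeR's quasi-likelihood fit with Benjamini-Hochberg adjustment). Without control replicate 1, Tbxas1 at 2.75 and Ptges2 at 5.68 were past the thresholds (Benjamini-Hochberg adjusted p = 0.0177 and 0.032 in edgeR's quasi-likelihood fit), and DESeq2 placed all 4 genes past them. Ptges2 was at 3.13 with the replicate block and 3.64 without HADA replicate 3. Ptgr2 was at 2.02 with libraries drawn down and 2.98 with the replicate block. None of these values was past the thresholds. For Tbxas1 libraries drawn down gave 1.40 (Benjamini-Hochberg adjusted p = 0.367 in edgeR's quasi-likelihood fit). Its counts in all 4 controls were below the receptor background, so that a fold after subtraction is not given.

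**Figure D4:**
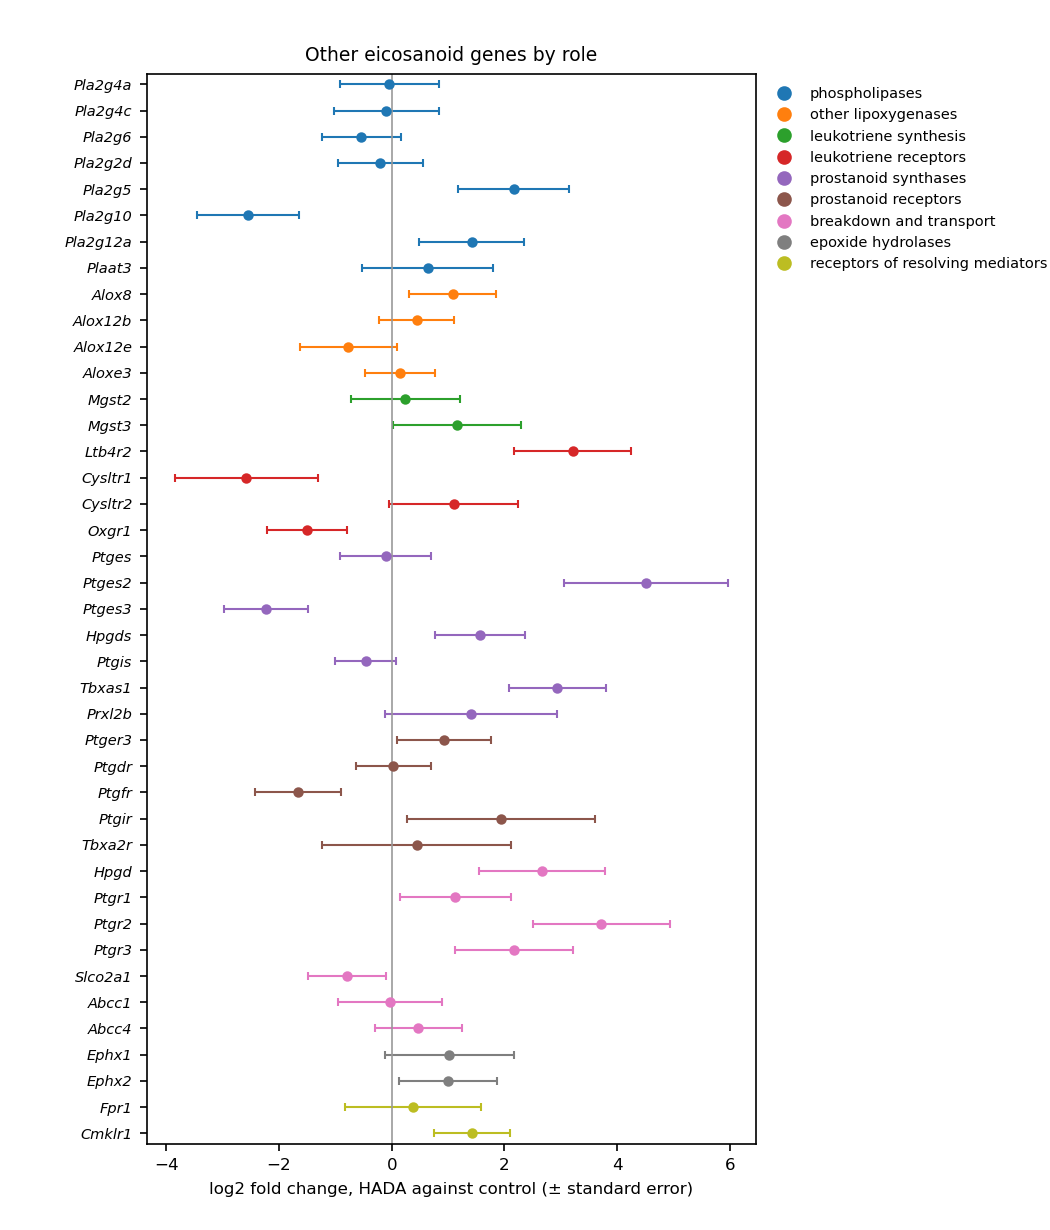
Log2 fold change of HADA against control with bars of 1 standard error (horizontal axis) for the 41 tested genes of the wider eicosanoid list, in edgeR with all 8 libraries, coloured by role. Values run from -2.58 (Cysltr1) to 4.51 (Ptges2), with 27 above 0.

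Several members are also known from other blood cells, and marker lists of those cells are given beside them. For the sorted cells themselves, 8 of 10 Treg markers were tested and all 8 had positive log2 fold changes, with none past the thresholds, and their summed level was 1569, 984, 2705 and 3277 CPM in HADA replicates 1 to 4 and 933, 269, 569 and 606 CPM in control replicates 1 to 4. The sum was higher in HADA (two-sided exact permutation p = 0.0286), and with control replicate 1 left out the p was 0.0571, with a difference of 1652 CPM in place of 1539 CPM and no overlap. Ikzf2 was the most abundant Treg marker, without which the sums overlapped (two-sided exact permutation p = 0.0571), and Foxp3 and Tnfrsf18, at 0 in all libraries, lie wholly under other genes, so that the defining marker of Tregs was not measured. The T cell list, led by Cd3g, summed to 3364, 2283, 6353 and 8336 CPM in HADA and 2522, 103, 822 and 2395 CPM in control, in replicate order (two-sided exact permutation p = 0.0857).

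Neutrophil markers, 11 genes led by Ltf, summed to 1884, 1461, 1264 and 1316 CPM in HADA and 59.7, 13.7, 17.8 and 299 CPM in control (two-sided exact permutation p = 0.0286, also without control replicate 1). Most of this sum in HADA was Ltf, the 1 neutrophil marker past the thresholds, at 1172 to 1726 CPM in HADA. Of the 9 tested, 6 had a positive log2 fold change, with a median of 1.89 and a range from -4.75 to 6.66. Without Ltf, a sum chosen after seeing the data, the list came to 158, 98, 92.3 and 125 CPM in HADA and 38.5, 10.5, 9.12 and 278 CPM in control, and overlapped (two-sided exact permutation p = 0.714). Monocyte and macrophage markers, led by Lyz2, summed to 1158, 2701, 3725 and 1185 CPM in HADA and 1947, 125, 777 and 1231 CPM in control, and overlapped (two-sided exact permutation p = 0.2). Eosinophil markers, led by Ccr3, were low, at 4.89, 40.2, 4.61 and 3.07 CPM in HADA and 14.3, 16.4, 14.1 and 89 CPM in control (two-sided exact permutation p = 0.457), with Ear1 and Ear2 at 0 and wholly under other genes.

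Basophil and mast cell markers, led by Cd200r3, summed to 1095, 402, 816 and 1548 CPM in HADA and 152, 42.7, 42.5 and 855 CPM in control (two-sided exact permutation p = 0.0857). Fcer1a was the 1 gene of these 8 past the thresholds, and with a library left out it was past them in 1 of 8 fits, that without control replicate 1. Fcer1a was not past them with the background subtracted, its trimmed form or the replicate block. It was past them with DESeq2, its size factors, no filter, at least 10 counts in at least 4 libraries, and libraries drawn down. Platelet markers, led by Ppbp and with P2ry12 at 0, summed to 1876, 374, 1440 and 1709 CPM in HADA and 754, 79.7, 83.5 and 661 CPM in control (two-sided exact permutation p = 0.0857).

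B cell markers, led by Ebf1 and with Ms4a1 at 0, summed to 1701, 1440, 3635 and 4284 CPM in HADA and 3666, 423, 2059 and 3309 CPM in control (two-sided exact permutation p = 0.714). The NK and CD8 T cell list, led by Nkg7, summed to 35.9, 140, 149 and 952 CPM in HADA and 51, 8.64, 6.25 and 104 CPM in control (two-sided exact permutation p = 0.0857), with HADA replicate 4 far above the rest, and Cd8b1 was its 1 gene past the thresholds, as in 3 of 8 fits with a library left out, those without HADA replicates 2 and 4 and control replicate 1. Cd8b1 was not past them with the background subtracted, libraries drawn down or the replicate block. It was past them with DESeq2, its size factors, no filter, at least 10 counts in at least 4 libraries, and the trimmed background subtracted. Erythroid markers, led by Hba-a1 and with Alas2 at 0, went the other way, at 2807, 1000, 146 and 173 CPM in HADA and 28367, 1029, 4143 and 7310 CPM in control (two-sided exact permutation p = 0.0571), and control replicate 1 was highest. Of the other lists, 0 of 8 tested T cell, 0 of 9 monocyte and macrophage, 0 of 4 eosinophil, 0 of 10 platelet, 0 of 8 B cell and 0 of 6 erythroid markers were past the thresholds by edgeR. The part of these cells, of the depth of control replicate 1 and of the background in the values of the members was not tested.

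**Figure D5:**
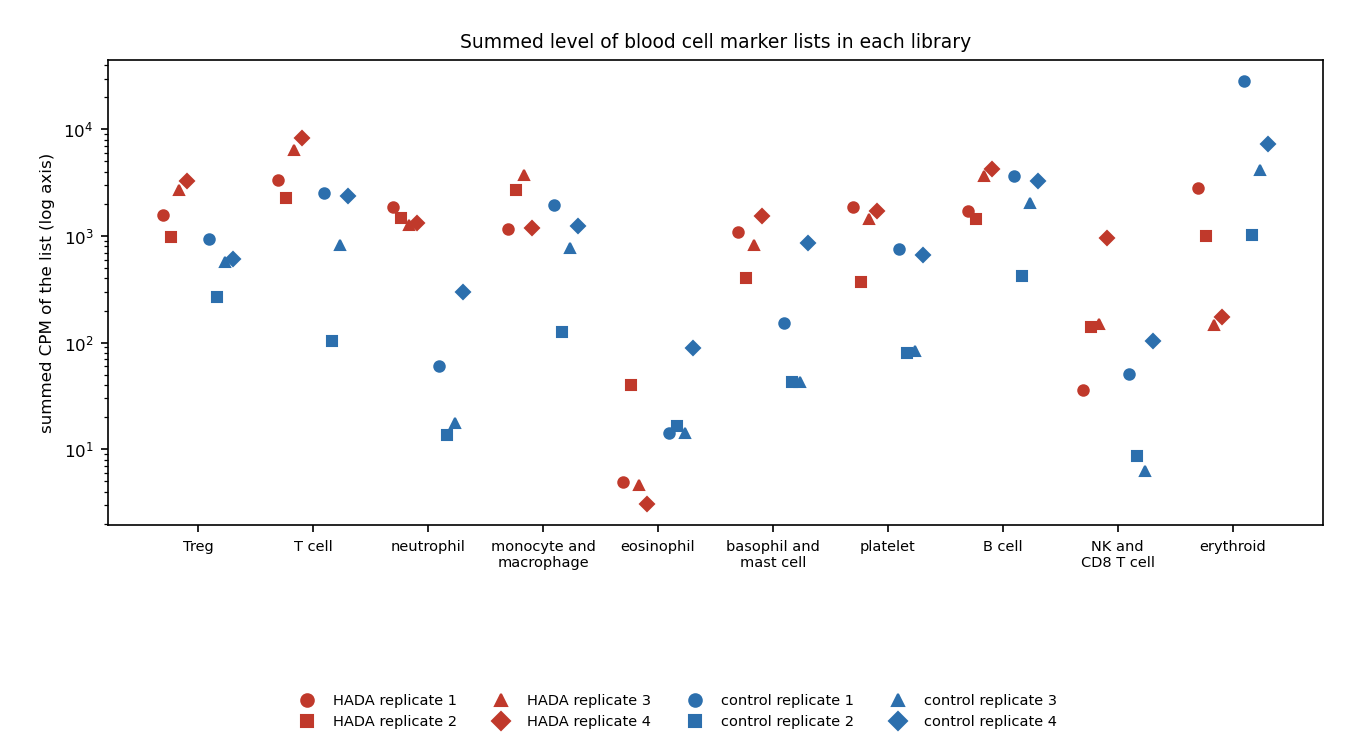
Summed TMM-normalized CPM of each of 10 blood cell marker lists (log axis) in the 4 HADA (red) and 4 control (blue) libraries, with the replicate shown by the symbol. HADA libraries lie above all controls for Treg and neutrophil markers, the latter through Ltf, and the groups overlap for the other lists.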

How the data were processed

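Reads from 4 HADA and 4 control libraries were checked with FastQC, trimmed with Trimmomatic, aligned to GRCm39 with STAR and counted per gene with featureCounts by the authors, who deposited raw counts for 56980 genes under Ensembl identifiers, without normalization. The strand setting of the counting is not given in the sources used here. Groups and replicate numbers came from the labels. Symbols were assigned from GENCODE vM39, which holds 56236 (98.7%) of the identifiers, and coordinates are those of the deposited count table. The members, the wider list and the marker lists were chosen with earlier results of these data known. The text names the 10 members, the gene with the highest mean CPM in each role of the wider list and each marker list, genes past the thresholds or at 0 in all libraries, and the 3 genes most like each tested member, and the other genes named were chosen after their values were seen.

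Counts were tested with edgeR 4.0.16 in R 4.3.3 (TMM, filterByExpr, quasi-likelihood test, no covariates) over 21991 genes, with Benjamini-Hochberg adjustment, and a prior count of 2 entered log2 CPM. Standard errors in edgeR are the log2 fold change over the root of the F statistic. Alternatives were DESeq2 1.42.0, its size factors, no filter on low counts, at least 10 counts in at least 4 libraries, the replicate number as a block, each library left out, a draw down to 1477431 counts with a seed of 1, no fold threshold, and subtraction of the receptor background. A subtraction without the 5% of receptor genes of highest density and marker sums without the most abundant gene were chosen after seeing the data. Subtracted and drawn-down counts were filtered and scaled anew, with TMM factors of their own. The fits were first tested on simulated data, where at the dispersion of these data edgeR found few of the changes put in, and DESeq2 found more with many false calls, so that a gene not past the thresholds is not shown to be unchanged. Permutation tests were exact and two-sided. Python 3.11.15 with pandas 2.3.3 and numpy 2.4.6 was used for tables. Copies of a cDNA molecule are not told apart, so that the floor of 3 counts covers counting error only. Promoter sequences came from RefSeq (GRCm38.p6).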

Additional observations from a re-analysis of the deposited data

Results flagged for a closer look

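A library that stood far from the other 3 of its group, by its gap to the nearest of them over the range of the group, was found in 5 of 42 groups of 4 values examined, where chance gives about 2.1. Of these, 2 were control replicate 1. Its log2 total count was 20.49, with the other controls from 23.78 to 24.43, and its log2 CPM of Ptgs2 was -3.34 on a count of 0, with the other controls from 0.73 to 1.38. The prior count sets that value, and a count of 0 at this depth allows up to 3 counts, so that it shows no measured difference in Ptgs2. For eosinophil markers, on the scale of log2(summed CPM + 1), HADA replicate 2 was at 5.37 with the other HADA libraries from 2.02 to 2.56, and control replicate 4 was at 6.49 with the other controls from 3.91 to 4.12. For platelet markers on that scale, HADA replicate 2 was at 8.55 with the other HADA libraries from 10.49 to 10.87.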

How the results depend on the processing

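Over the alternatives, 118 of 133 log2 fold changes of members kept their direction and their side of the thresholds, 8 passed the thresholds in the same direction and 7 turned. The reversals were Alox12 at -0.35 with libraries drawn down, Lta4h at -0.01 and Ptgs1 at -0.29 with the background subtracted, and Ptgs1 at -0.53 without HADA replicate 1 and at -0.16, -0.23 and -0.20 without control replicates 2, 3 and 4, in a range up to 2.20 without control replicate 1. Members past the thresholds numbered 0 in the main fit, 3 with DESeq2 and 0 to 4 with a library left out, 1 without HADA replicate 3 and 4 without control replicate 1. Of all genes, 363 were higher and 105 lower, against 2457 and 4247 with DESeq2, 113 higher with the background subtracted and 828 with its trimmed form, 107 higher and 156 lower with libraries drawn down, 54 lower without a filter and 42 lower with at least 10 counts in at least 4 libraries. With a library left out, 28 (without control replicate 3) to 3716 (without control replicate 1) genes were higher, and 1 to 4732 lower in the same fits. Of the wider list, 5 genes were higher and 5 lower with DESeq2, 4 higher and 1 lower with the trimmed background, 1 lower with the background subtracted or libraries drawn down, and 0 to 5 higher and 0 to 4 lower with a library left out. With the replicate number as a block, 158 genes were higher and 11 lower, with 0 members and 0 genes of the wider list. The deviations of libraries with the same number correlated at -0.207, 0.252, -0.0805 and -0.00316. HADA replicate 2 correlated best with the control of its own number, beside 0.137 at most with the other controls, and the other HADA libraries did not. With 4 libraries per group these values cannot decide whether the numbers pair the libraries. Under the block no sign of a member changed. Background-subtracted fits gave no value for Alox15, Ltb4r1 and Ptgs2, whose remaining counts did not pass the filter, and neither did those of Alox15, Ltb4r1, Ptgs1 and Ptgs2 with libraries drawn down. After subtraction, 93 of the 113 higher genes, and 761 of 828 in the trimmed form with all 4 of the wider list, had 0 counts in every control, so that the floor sets their fold. The cause of these changes was not tested. Marker sums kept their direction without control replicate 1 and without the most abundant gene. Depth limits the members most in control replicate 1, where Alox15 and Ptgs2 had 0 counts, which allows up to 3 counts, or 0.000203% of its total.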

Other observations

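In control replicate 1, the shallowest library, the ratio to the receptor-gene background was above 1 for 7 members, and Alox15 and Ptgs2 had 0 counts. Of these 7, Ltb4r1 had 2 counts in that library, below the floor of 3 counts and too few to tell. There, Alox5 held 4.47 times the background, Ltb4r1 10 times a background of 0.2 counts, Ptgs1 23.8 times, Alox5ap 30.4 times, Ptger4 34.5 times, Lta4h 57.2 times and Alox12 61.1 times, on counts from 2 for Ltb4r1 to 142 for Lta4h. Alox12 and Alox5ap in control replicate 4 were also far above it, at 36.6 and 10.6 times. Its receptor density, 0.0534 counts per kb of span once scaled by the total count to CPM, was the lowest of the 8 libraries, beside 0.745, 0.365 and 0.162 in control replicates 2, 3 and 4 and 0.187, 0.191, 0.113 and 0.0749 in HADA replicates 1 to 4. The share of counts on receptor genes averaged 0.153% (HADA) and 0.357% (control, two-sided exact permutation p = 0.343).

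The adjacent leukotriene B4 receptor genes Ltb4r1 and Ltb4r2 had their highest counts in the same libraries. Ltb4r2 had 171, 20, 68 and 4 counts in HADA replicates 1 to 4 and 0, 16, 2 and 8 in control replicates 1 to 4, and a log2 fold change of 3.21 ± 1.04 (SE, with a Benjamini-Hochberg adjusted p = 0.107 in edgeR's quasi-likelihood fit), and it was singled out after its values were seen. For both genes HADA replicates 1 and 3 were high and HADA replicate 4 was low. The log2 fold change of Ltb4r2 was 2.30 without HADA replicate 1 and 2.26 with the replicate block, past the thresholds in neither. DESeq2 placed Ltb4r2 past them at 3.04 (Benjamini-Hochberg adjusted p = 0.0105). Cysltr1, a receptor of cysteinyl leukotrienes, had the lowest log2 fold change of the wider list with all libraries, -2.58, on 6, 50, 0 and 2 counts in HADA and 21, 65, 43 and 10 in control. It was -0.97 without control replicate 1, where Pla2g10 was lowest at -2.73, and -4.78 without HADA replicate 2, and DESeq2 placed it past the thresholds at -2.70 (adjusted p = 0.0421). Other genes cover 69.9% of the Cysltr1 span.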
